A study of Mus musculus with 8 samples.

Results

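The genes described here were the 5 ligands of the vascular endothelial growth factor (VEGF) family (Vegfa, Vegfb, Vegfc, Vegfd and Pgf), their 3 receptor tyrosine kinases (Flt1, Kdr and Flt4) and the co-receptors Nrp1 and Nrp2. They were chosen by symbol, without regard to any measured value, and made up 10 of the 32285 genes counted. RNA of single nuclei from adult mouse hearts was counted by droplet sequencing. Nuclei came from female and male mice that were either wild-type and non-transgenic (nTg) or transgenic (Tg) with constitutive expression of CCNA2, cyclin A2, a regulator of cell division. The promoter that drives the transgene, the age of the mice and the number of hearts per library are not given in the sources used here, so the spread between libraries may in part be technical.

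VEGF ligands are secreted dimers that act mainly on endothelial cells, the lining of blood and lymph vessels. VEGF-A binds Flt1 (VEGFR1), which holds the ligand tightly and signals weakly, and Kdr (VEGFR2), the main signalling receptor for growth and permeability of blood vessels. VEGF-B and placental growth factor (Pgf) bind Flt1, whereas VEGF-C and VEGF-D act mainly through Flt4 (VEGFR3), the receptor of lymphatic growth. Nrp1 and Nrp2 bind VEGFs as co-receptors and also serve, with plexins, as receptors of class 3 semaphorins. In the heart, cardiomyocytes are a known source of VEGF-A for the capillaries between them.

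Of the 8 deposited libraries, 5 had a matrix that matched its own list of nuclei. They carried the labels nTg female 1, Tg female 1 and 2, and Tg male 1 and 2; the other 3 matrices repeated the values of another library and were not analysed here. The 5 libraries held 25045167 to 38593706 UMIs (unique molecular identifiers, 1 per counted RNA molecule) and 5773 to 8817 nuclei after filtering. Pairs of libraries shared at most 28 nucleus barcodes. Levels of Ccna2 in cardiomyocyte nuclei went against the labels: 444 CPM (counts per 1000000 UMIs) in the library labelled nTg female 1 against 0.524 CPM in that labelled Tg female 1, and 143 to 828 CPM in the other 3. Groups are therefore named by their labels throughout, and no result below is assigned to the transgene. Xist and Y-linked genes matched the sex labels of all 5 libraries.

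Nuclei were clustered without the 10 genes and the clusters were named from marker lists. The 8 types with at least 50 nuclei in every library are described, and each name stands for nuclei like that type: 6533 cardiomyocyte, 12290 fibroblast, 7064 blood endothelial, 1326 endocardial (the lining of the heart chambers), 760 lymphatic endothelial, 2587 macrophage, 2183 pericyte and 510 smooth muscle nuclei. All markers of each type were detected in that type in every library. A level is the summed UMIs of a gene in a type divided by all UMIs of that type and scaled to counts per 1000000 (CPM), given as mean ± SD over the 5 libraries. CPM values were compared for the same gene between types, not between genes. Levels by type are a description without a test.

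Among the ligands, Vegfa was a cardiomyocyte gene in all 5 libraries. Vegfa (chr17:46016993-46032369, minus strand, GRCm38) stood at 829 ± 176 CPM in cardiomyocyte nuclei, 6.91 times its level in fibroblasts (120 ± 43.8 CPM). Cardiomyocyte nuclei held 763 CPM in the library labelled nTg female 1, 843 and 1127 CPM in those labelled Tg female 1 and 2, and 725 and 688 CPM in those labelled Tg male 1 and 2. The library labelled Tg female 2 was the highest. Among the 8 types described, the lowest cardiomyocyte value lay above the highest value of every other type. Cardiomyocyte nuclei were the source of 87.6 ± 3.2% of all Vegfa UMIs. They were a minority of the nuclei but deeper than the others. They held 6136897 of 17599670 UMIs of all genes in the library labelled Tg female 2 and 10771908 of 23898600 in Tg male 2. Of the cardiomyocyte nuclei, 95.9% had at least 1 Vegfa UMI, and 53.7% after each nucleus was thinned to 1000 UMIs. Thinning left out shallower nuclei and kept 6474 cardiomyocyte, 12098 fibroblast, 6721 blood endothelial, 751 lymphatic endothelial and 2452 macrophage nuclei. In macrophages, a type with shallow nuclei and little Vegfa, the shares were 2.59% and 0.884%. Median depths ranged from 5804.5 to 8022 UMIs in cardiomyocytes and from 1875 to 2744.5 in macrophages over the libraries.

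The lower Vegfa levels outside cardiomyocytes were set beside the RNA of cardiomyocyte markers found in the same nuclei. In fibroblasts, the summed cardiomyocyte markers reached 1.96 to 3.85% of their level in cardiomyocytes, while Vegfa reached 11.8 to 16.8% of its level there. Blood endothelial nuclei held Vegfa at 61.1 ± 12.4 CPM, or 6.88 to 8.0% of the cardiomyocyte level, against 3.23 to 5.0% for the markers. In macrophages Vegfa did not exceed this background in any library: it was at 0.751 to 2.15% of the cardiomyocyte level, against 2.37 to 3.95% for the markers. In pericytes Vegfa was at 2.32 to 3.20% against 2.57 to 4.69% for the markers. It exceeded them there only in the library labelled Tg male 2 (3.20 against 2.57%).

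Vegfa also varied within types. Among cardiomyocytes, the cluster led by Bpifb4, Cntn2 and Fgf12 (123 nuclei), which carries genes known from the conduction system, held 340 ± 83.3 CPM, from 200.5 to 414 CPM over the libraries, and lay below the other 3 cardiomyocyte clusters in every library. Within fibroblasts, a cluster led by Duoxa1, Duox1 and Has2 (936 nuclei) reached 270 ± 39.0 CPM. Outside the 8 types described, a cluster of only 12 adipocyte nuclei held 883 ± 149 CPM, a value that rests on 3 to 26 UMIs per library. Cardiomyocyte nuclei with at least 10 Ccna2 UMIs were compared with those that had none. Their Vegfa levels were 718 against 770 CPM in the library labelled nTg female 1, 1046 against 1143 CPM in Tg female 2, 767 against 721 CPM in Tg male 1 and 633 against 687 CPM in Tg male 2. The direction was not the same in all 4, and the library labelled Tg female 1 had no nucleus with 10 Ccna2 UMIs.

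The sequence just upstream of Vegfa is shown with those of Flt1 and Kdr, because these 3 genes make up the main cardiomyocyte-to-endothelium pair and have their highest levels in different cells. The lines give up to 250 bases before the transcript start in the RefSeq promoter table (GRCm38.p6), 5′ to 3′ on the strand of the gene, with annotated exons left out. Capitals mark AGGAA or its reverse complement TTCCT, the core of ETS factor motifs; ACGTG (reverse complement CACGT), the core of the hypoxia response element, was also searched on both strands.
Vegfa (chr17:46032378-46032627, minus strand): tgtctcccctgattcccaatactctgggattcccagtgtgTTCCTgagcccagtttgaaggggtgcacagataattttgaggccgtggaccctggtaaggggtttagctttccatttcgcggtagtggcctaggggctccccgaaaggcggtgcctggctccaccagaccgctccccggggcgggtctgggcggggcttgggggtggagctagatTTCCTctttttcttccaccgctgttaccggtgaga
Flt1 (chr5:147726012-147726261, minus strand): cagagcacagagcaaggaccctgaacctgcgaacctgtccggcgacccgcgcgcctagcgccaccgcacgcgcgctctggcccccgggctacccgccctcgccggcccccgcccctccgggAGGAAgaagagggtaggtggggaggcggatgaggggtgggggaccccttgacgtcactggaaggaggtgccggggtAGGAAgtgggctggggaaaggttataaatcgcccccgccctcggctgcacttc
Kdr (chr5:75978459-75978705, minus strand): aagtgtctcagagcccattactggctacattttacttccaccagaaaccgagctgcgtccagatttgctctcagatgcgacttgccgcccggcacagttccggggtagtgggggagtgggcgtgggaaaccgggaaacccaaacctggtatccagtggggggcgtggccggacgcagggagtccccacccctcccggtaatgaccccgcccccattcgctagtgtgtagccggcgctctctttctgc
The Vegfa and Flt1 windows shown each held 2 AGGAA cores and no ACGTG, and the Kdr window held neither. A second Vegfa entry of the promoter table (chr17:46025164-46025413) overlapped annotated exons and is not shown. It held 1 ACGTG core and no AGGAA. Of 32851 promoter windows of 250 bases in the table, 60.3% held AGGAA and 16.6% held ACGTG on either strand. The absence of a motif refers only to these letters in these windows.

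Vegfb, a ligand of Flt1 linked to fatty acid handling in muscle, was also highest in cardiomyocytes but was spread more evenly. Vegfb (chr19:6982473-6987651, minus strand) stood at 59.7 ± 4.78 CPM in cardiomyocytes, from 54.7 to 66.2 CPM, and at 15.2 to 27.9 CPM on average in each of the other 7 types. The order among those 7 types was not separated beyond the spread between libraries, since the ranges of neighbours in that order overlapped. Cardiomyocytes held 67.8 ± 4.9% of its UMIs and fibroblasts 15.8 ± 3.4%. A Vegfb UMI was found in 34.0% of cardiomyocyte nuclei and 3.10% of blood endothelial nuclei, the lowest type, or 6.35% and 1.66% after thinning.

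Vegfc was a ligand of blood endothelium, with a smaller part in fibroblasts. Vegfc (chr8:54077606-54187096, plus strand) stood at 546 ± 162 CPM in blood endothelial nuclei, 4.75 times the fibroblast level of 115 ± 25.6 CPM, and at 3.22 ± 0.363 CPM in cardiomyocytes. Blood endothelial levels were 516 CPM in the library labelled nTg female 1, 831 and 499 CPM in Tg female 1 and 2, and 438 and 447 CPM in Tg male 1 and 2. The library labelled Tg female 1 was far above the other 4. Blood endothelium held 62.5 ± 3.1% of the Vegfc UMIs and fibroblasts 29.9 ± 2.2%. Lymphatic endothelial nuclei, which carry its receptor Flt4, held 13.1 ± 11.3 CPM, and 1 library had no Vegfc UMI there. Vegfc UMIs were present in 38% of blood endothelial nuclei (28% after thinning) and 2.10% of cardiomyocyte nuclei (0.457%).

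Vegfd and Pgf were ligands of the connective tissue and of the endocardium or lymphatics. Vegfd (chrX:164373378-164402650, plus strand) stood at 104 ± 23.0 CPM in endocardial, 56.0 ± 18.5 CPM in lymphatic endothelial and 46.1 ± 8.11 CPM in fibroblast nuclei, and at 14.7 CPM or less in the other 5 types. The lymphatic range overlapped those of the other two, while every endocardial value lay above every fibroblast value. Fibroblasts, the most numerous type, held 56.7 ± 3.8% of its UMIs. A fibroblast cluster led by Thsd7b, Shisa9 and Fgf10 (1204 nuclei) held 113 ± 22.0 CPM, close to the endocardial level. Vegfd starts 366 bases after the end of Pir, on the same strand, and Pir was the gene whose levels across the 8 types were most like those of Vegfd (r = 0.98 of log2 mean CPM + 1, over 8 types that share libraries). Pir stood at 288 ± 56.1 CPM in endocardial and 169 ± 40.5 CPM in lymphatic endothelial nuclei, and Vegfd at 0.332 to 0.904 of the Pir level across the types. Whether transcripts of Pir that run into Vegfd were counted was not tested.

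Pgf (chr12:85166635-85177790, minus strand) stood at 72.9 ± 28.2 CPM in fibroblasts, 47.0 ± 17.6 CPM in lymphatic endothelium and 40.1 ± 14.7 CPM in smooth muscle, and at 8.01 CPM or less elsewhere. Fibroblasts held 85.7 ± 5.0% of its UMIs. Within fibroblasts its highest levels lay in the Duoxa1 and Has2 cluster (106 ± 36.2 CPM) and the cluster led by Myoc and Scara5 (101 ± 41.2 CPM). With a median depth of 2060 to 3011.5 UMIs, a Pgf UMI was found in 15.6% of fibroblast nuclei (6.79% after thinning) and 0.660% of cardiomyocyte nuclei (0.0563%).

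**Figure D1:**
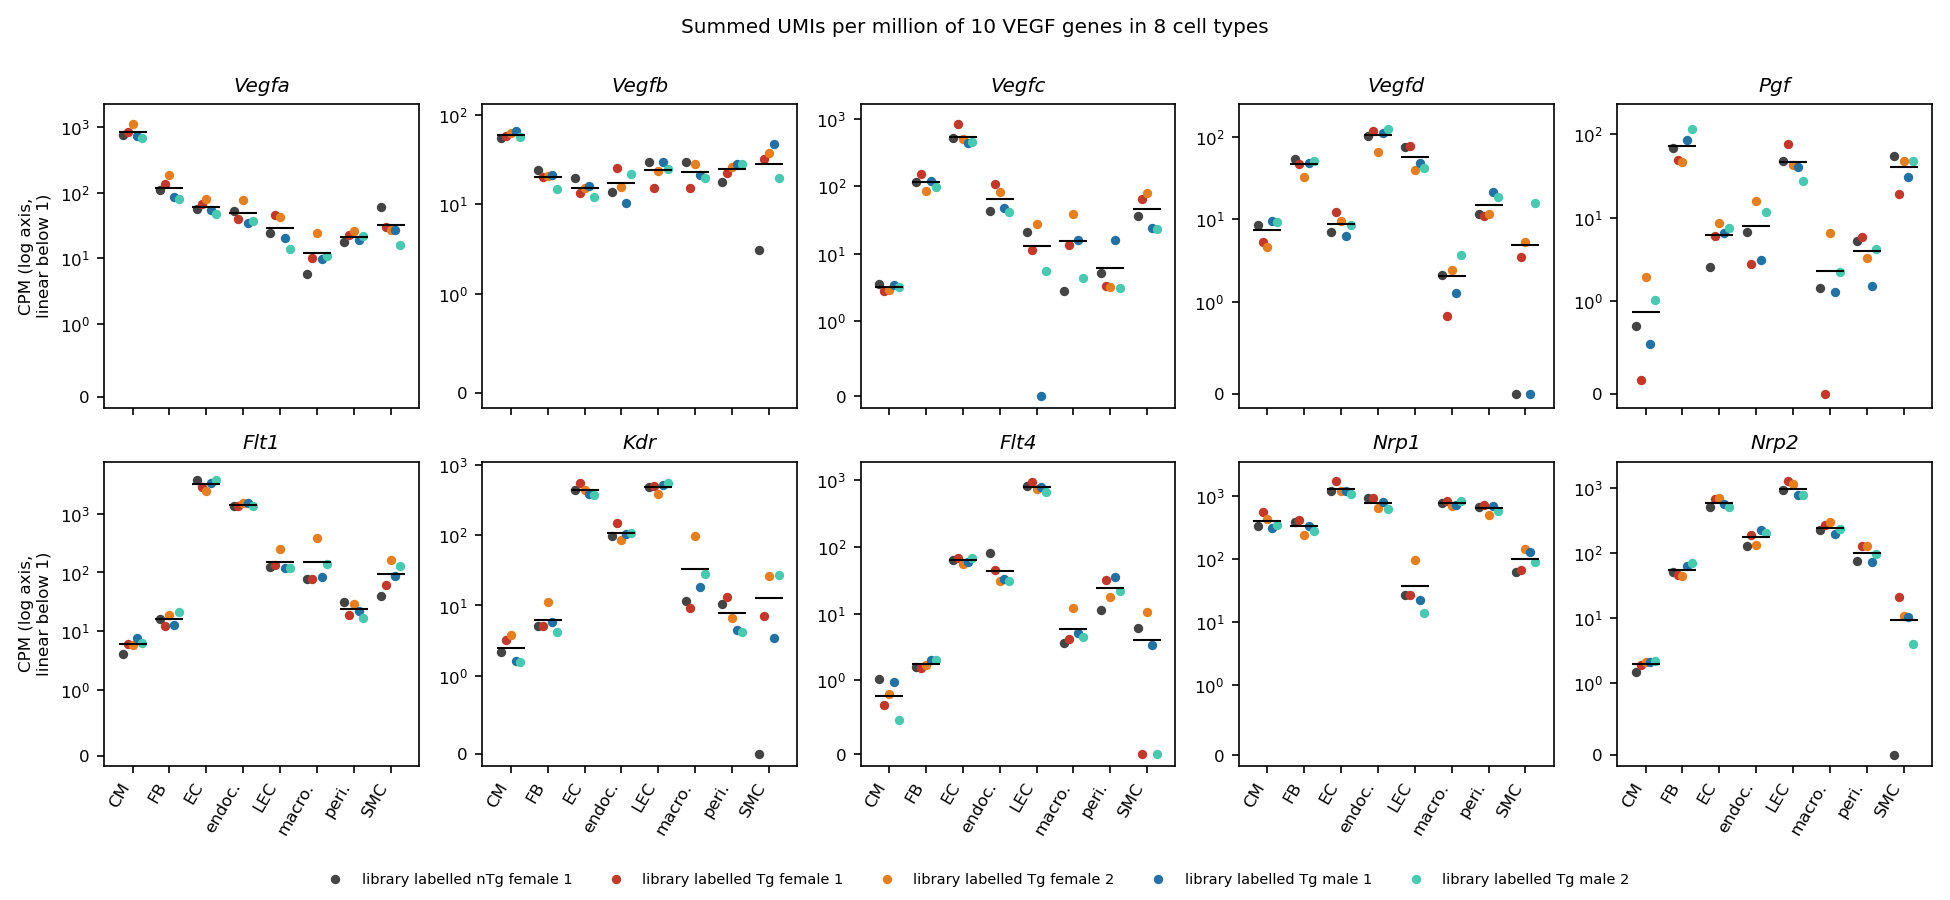
Level of each of the 10 genes (CPM, log axis that is linear below 1) in cardiomyocyte (CM), fibroblast (FB), blood endothelial (EC), endocardial (endoc.), lymphatic endothelial (LEC), macrophage (macro.), pericyte (peri.) and smooth muscle (SMC) nuclei; each point is 1 library and each line the mean of 5. Vegfa at 829 CPM is a cardiomyocyte gene, Flt1 at 3232 CPM a blood endothelial gene and Flt4 at 803 CPM a lymphatic endothelial gene.

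Among the receptors, Flt1 and Kdr were both endothelial but differed in the lymphatics. Flt1 (chr5:147561604-147726011, minus strand) stood at 3232 ± 580 CPM in blood endothelial, 1401 ± 102 CPM in endocardial and 149 ± 55.8 CPM in lymphatic endothelial nuclei. Its blood endothelial level was 3753 CPM in the library labelled nTg female 1, 2819 and 2459 CPM in Tg female 1 and 2, and 3361 and 3769 CPM in Tg male 1 and 2. The 2 Tg female libraries were the lowest, and every blood endothelial value lay above every value of the other types. Kdr (chr5:75932827-75978458, minus strand) stood at 488 ± 62.9 CPM in lymphatic and 438 ± 68.5 CPM in blood endothelial nuclei, whose ranges overlapped, and at 108 ± 23.0 CPM in endocardial nuclei. Both were lowest in cardiomyocytes, which held 6.05 ± 1.33 CPM of Flt1 and 2.47 ± 0.977 CPM of Kdr.

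Flt1 was detected in nearly every blood endothelial nucleus: 94.3% had a UMI, and 87.4% after thinning, against 2.88% and 0.494% of the deeper cardiomyocyte nuclei. For Kdr the shares were 47.7% and 31.6% in blood endothelium against 1.67% and 0.189% in cardiomyocytes. Both were counted in the same thinned nuclei. In the library labelled nTg female 1, 93.3% of blood endothelial nuclei with a Kdr UMI also had a Flt1 UMI, against 90.5% of those without, and the same order held in the other 4 libraries. Across the libraries, 85.6 to 93.3% of the nuclei with a Kdr UMI had a Flt1 UMI. Median depth was 1572 to 2208 UMIs in blood endothelium over the libraries.

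Macrophages of the library labelled Tg female 2 stood apart in both receptors. Flt1 was at 388 CPM there against 76.6 to 140 CPM in the other 4 libraries, and Kdr at 96.2 CPM against 9.28 to 27.9 CPM. The 10 blood endothelial markers moved with them, at a sum of 1327 CPM in those macrophages against 223 to 398 CPM in the others. Set against blood endothelium of the same library, the markers stood at 18.3%, Flt1 at 15.8% and Kdr at 21.9%. In the other 4 libraries the macrophage markers stood at 2.59 to 4.75% of the endothelial level, Flt1 at 2.04 to 3.70% and Kdr at 1.69 to 7.42%. Scrublet's own threshold called no doublets in this library, so the median threshold of the other 4 was used and removed 796 nuclei (11.4%). The part of remaining doublets or free RNA in these values was not tested.

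Flt4 was the lymphatic receptor. Flt4 (chr11:49609263-49652739, plus strand) stood at 803 ± 102 CPM in lymphatic endothelial nuclei, 12.6 times its blood endothelial level of 63.6 ± 5.08 CPM. Lymphatic levels were 835 CPM in the library labelled nTg female 1, 948 and 751 CPM in Tg female 1 and 2, and 807 and 673 CPM in Tg male 1 and 2, all far above every other type. Because blood endothelial nuclei were more numerous, they still held 32.3 ± 4.9% of the Flt4 UMIs, beside 51.4 ± 4.7% in the lymphatics. With a median depth of 1963 to 2791 UMIs, a Flt4 UMI was found in 71.6% of lymphatic nuclei (46.3% after thinning) and 0.556% of cardiomyocyte nuclei (0.0828%).

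The neuropilins differed in the 2 endothelia: Nrp1 was high in blood and low in lymphatic endothelium, whereas Nrp2 was high in both. Nrp1 (chr8:128358604-128503363, plus strand) stood at 1276 ± 254 CPM in blood endothelium and 36.8 ± 32.6 CPM in lymphatic endothelium, the lowest of the 8 types. Nrp2 (chr1:62703285-62818695, plus strand) stood at 984 ± 218 CPM in lymphatic and 594 ± 86.0 CPM in blood endothelium. Nrp1 was the most widely distributed member: macrophages held 762 ± 60.9 CPM, pericytes 629 ± 89.8 CPM, cardiomyocytes 391 ± 97.5 CPM and fibroblasts 327 ± 72.8 CPM. Cardiomyocytes, which carry more UMIs per nucleus, contributed 31.0 ± 4.8% of the Nrp1 UMIs and blood endothelium 30.6 ± 1.3%. Of the Nrp2 UMIs, blood endothelium held 54.9 ± 1.6% and lymphatic endothelium 11.7 ± 2.9%. Nrp2 was also present in macrophages (245 ± 40.4 CPM) and nearly absent from cardiomyocytes (1.93 ± 0.283 CPM). The lymphatic value of Nrp1 rested on the library labelled Tg female 2, at 94.4 CPM, where the other 4 held 13.9 to 26.7 CPM. The gene Gm29083 overlaps Nrp2 on the opposite strand, and reads of the pair cannot be told apart if strand was not used in counting.

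For 7 of the 10 genes, the lowest library of the highest type lay above the highest library of every other type; the ranges of Vegfd, Pgf and Kdr overlapped with those of another type, although Vegfd was higher in endocardium than in lymphatic endothelium within each of the 5 libraries. Over all 13849 genes with at least 10 CPM in a type, this held for 30%. The highest type of each of the 10 genes was the same with doublets kept, at a coarser clustering and without each library in turn.

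**Figure D2:**
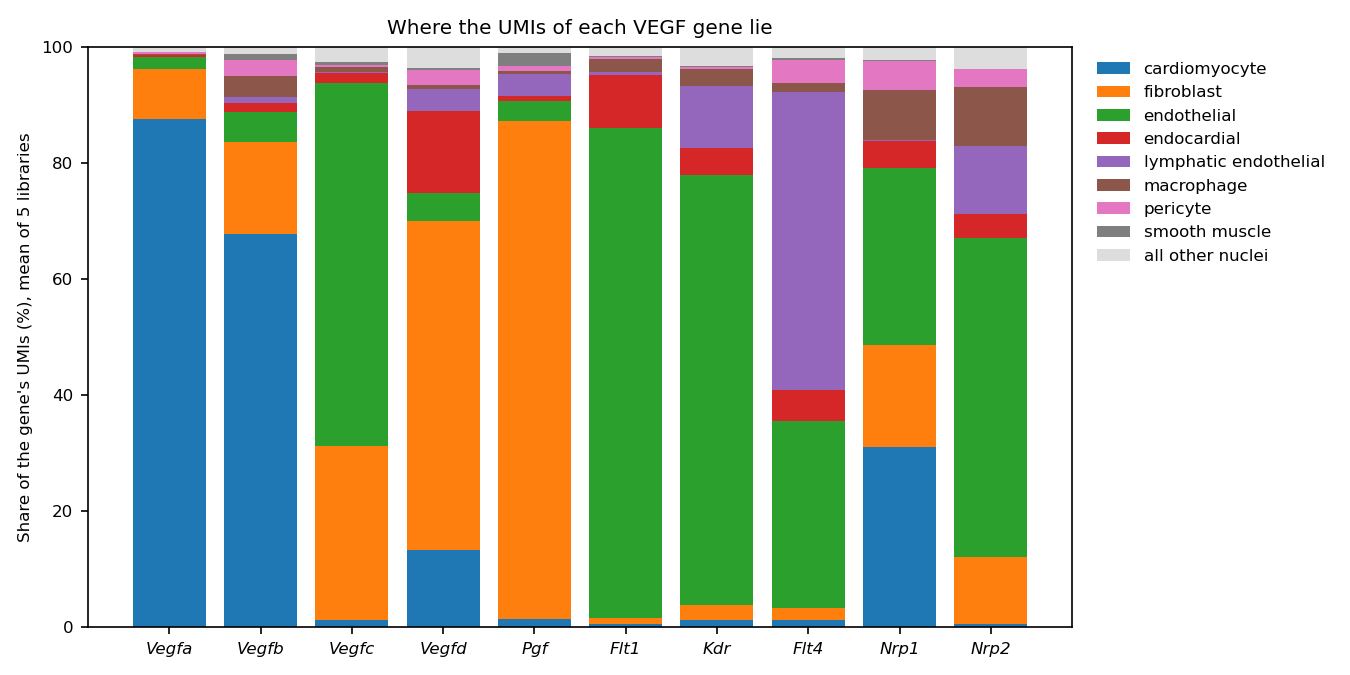
Share of the UMIs of each gene that lie in each of the 8 cell types (percent, mean of 5 libraries, stacked, with the remaining nuclei in grey up to 100). Cardiomyocytes hold 87.6% of the Vegfa UMIs and blood endothelium 84.5% of the Flt1 UMIs, whereas Nrp1 is divided between cardiomyocytes (31.0%) and blood endothelium (30.6%).

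Blood, endocardial and lymphatic endothelial nuclei were clustered again to place the genes along the vessel tree. One subcluster of 1433 nuclei was capillary-like (led by Adam23, with Btnl9 and Unc5b) and 1 of 1320 was arterial-like (Gja5, Sema3g). Besides these there were 2 unnamed subclusters, of 2944 nuclei led by Kit and Nos2 and of 1279 led by Col13a1 and Kirrel3, 2 endocardial-like ones and 1 lymphatic-like one. The capillary-like name rested on 4 of 7 capillary markers. The Kit and Nos2 subcluster also scored highest for the capillary list, but with 2 of 7 markers raised it stayed unnamed. Levels in these 2 subclusters are thus not a comparison of capillary with other vessels. A subcluster of 84 nuclei led by pericyte genes was left out. Kdr and Flt1 took different orders over these subclusters, although both are receptors of VEGF-A.

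Kdr was highest in the capillary-like nuclei, at 759 ± 126 CPM, followed by 516 ± 82.9 CPM in the Kit and Nos2 subcluster, 249.4 ± 49.2 CPM in the Col13a1 and Kirrel3 subcluster and 135 ± 27.2 CPM in arterial-like nuclei. Capillary-like values were 703 CPM in the library labelled nTg female 1, 983 and 720 CPM in Tg female 1 and 2, and 713 and 675 CPM in Tg male 1 and 2. Each of these lay above every value of the other subclusters. Flt1 was highest in the Col13a1 and Kirrel3 subcluster, at 4687 ± 824 CPM, against 3441 ± 473 CPM in capillary-like and 2143 ± 211 CPM in arterial-like nuclei. That subcluster ranked first in all 5 libraries, although its range overlapped that of the capillary-like nuclei.

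Vegfc was highest in 2 of the blood endothelial subclusters. It stood at 1169 ± 490 CPM in arterial-like nuclei and 1026 ± 172 CPM in the Col13a1 and Kirrel3 subcluster, but at 226 ± 39.3 CPM in the Kit and Nos2 subcluster and 180 ± 108 CPM in capillary-like nuclei. The Col13a1 and Kirrel3 values (797 to 1261 CPM) and the arterial-like values (795 to 2027 CPM) overlapped, and both sets lay above all values of the other subclusters. Vegfa, low in endothelium as a whole, followed with 135 ± 34.5 CPM in arterial-like against 23.2 ± 5.30 CPM in capillary-like nuclei. Nrp2 took another order: its mean was lowest in arterial-like nuclei, at 53.9 ± 23.8 CPM, and was 961 ± 162 CPM in the Kit and Nos2 subcluster and 976 ± 208 CPM in lymphatic-like nuclei. The arterial-like range overlapped only that of the endocardial-like subcluster led by Lsamp and Hapln1. Nrp1 was highest in the Kit and Nos2 subcluster (1539 ± 286 CPM) and the capillary-like nuclei (1508 ± 342 CPM), which did not differ beyond their spread.

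The endocardial-like subclusters did not overlap in either neuropilin. The one led by Nrg1 and Smoc1 (1023 nuclei) held Nrp1 at 984 ± 223 CPM and Nrp2 at 210 ± 41.8 CPM. The one led by Lsamp and Hapln1 (297 nuclei) held 196 ± 68.0 and 73.2 ± 30 CPM. The endocardial-like name of the latter rested on 4 of 8 markers, and 4 fibroblast markers were raised there too. Vegfd stood at 120 ± 14.5 CPM in the first and 56.5 ± 50.5 CPM in the second, whose ranges overlapped. For Kdr and Flt4, 2 of the 10 genes, the range of the highest subcluster lay wholly above all others; over 11991 genes this held for 7.55%. At the coarser resolution 1 capillary-like subcluster held 4785 nuclei, Kdr there was at 574 CPM and its range overlapped that of another subcluster, and the genes that met the criterion were Vegfa, Pgf, Flt1 and Flt4 (11.8% of all genes). Without the library labelled Tg male 2, the criterion was met by 6 genes (Vegfa, Vegfd, Pgf, Flt1, Kdr and Flt4), and by 9.47% of all genes.

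**Figure D3:**
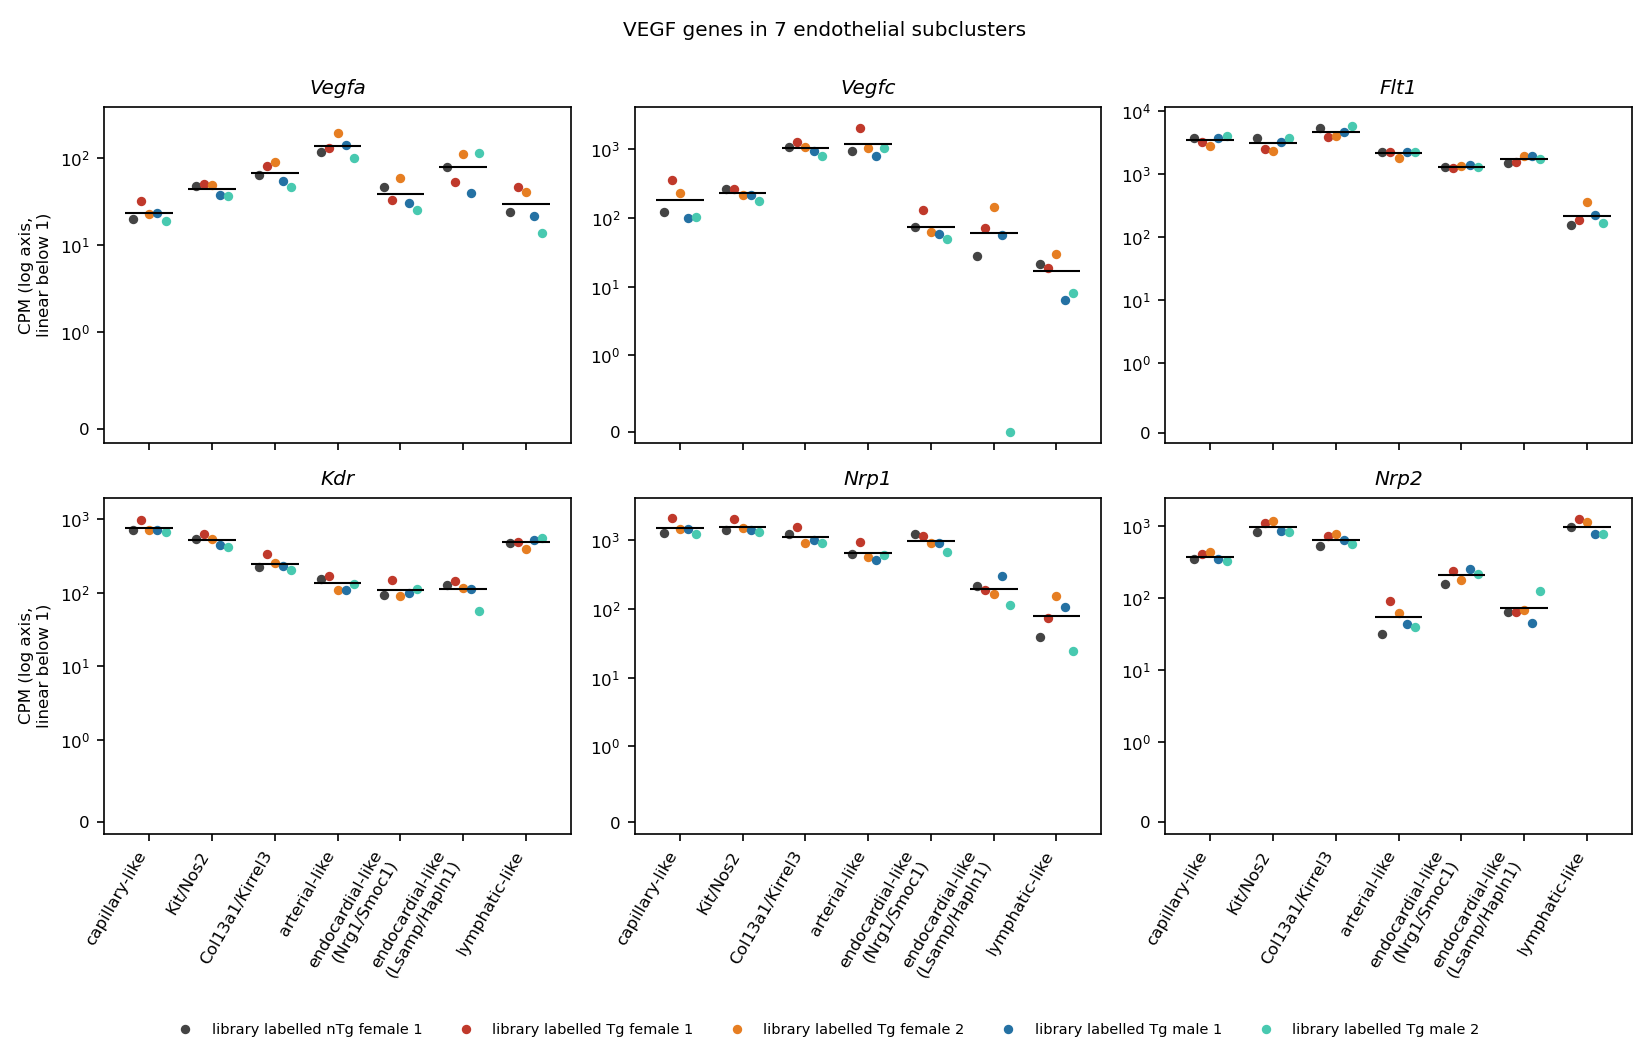
Level (CPM, log axis that is linear below 1) of 6 of the genes in 7 endothelial subclusters, with 1 point per library and the mean of 5 as a line. Kdr peaks in the subcluster named capillary-like (759 CPM) and Flt1 in the Col13a1 and Kirrel3 subcluster (4687 CPM). Vegfc peaks in the Col13a1 and Kirrel3 subcluster and the arterial-like one (1026 and 1169 CPM). Nrp2 has its lowest mean in arterial-like nuclei (53.9 CPM).

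Genes that work with the family were read from 5 lists. Of 27 genes of receptor signalling, the highest in blood endothelium were Ptprb (1577 ± 207 CPM), a phosphatase of endothelial receptors, Cav1 (979 ± 146 CPM), the coat protein of caveolae, and Ptk2 (799 ± 76.9 CPM), focal adhesion kinase. Of 16 genes known to respond to VEGF, they were Lama4 (446 ± 119 CPM), a laminin chain that was higher in lymphatic endothelium (1318 ± 165 CPM), Pdgfb (225 ± 34.9 CPM), the ligand that recruits pericytes, and Igfbp3 (91.2 ± 27.7 CPM). Of 17 measured genes of the hypoxia response, which controls Vegfa, the highest in cardiomyocytes were Hk2 (471 ± 106 CPM), a hexokinase, Hif1a (183 ± 28.9 CPM), the oxygen-regulated factor itself, and Egln1 (138 ± 20.5 CPM), the hydroxylase that marks it for degradation.

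Among 11 semaphorins and plexins, the partners of the neuropilins, the highest levels in any type were those of Plxna4 in endocardium (904 ± 146 CPM), Sema3d in lymphatic endothelium (724 ± 64.0 CPM) and Plxna2 in blood endothelium (630 ± 127 CPM). Of 6 genes of VEGF-C processing, Ccbe1, the secreted cofactor needed to activate VEGF-C, was highest in fibroblasts at 424 ± 127 CPM and stood at 4.70 CPM on average in blood endothelium, the main source of Vegfc. The proprotein convertases Pcsk5 and Pcsk7 were highest in endocardium (168 ± 35.1 CPM) and smooth muscle (138 ± 18.7 CPM).

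The gene whose pattern over the 8 types was most like that of Vegfa was Tmem150a (r = 0.98), that of Kdr was Slfn3 (r = 0.99), that of Flt1 was Clec1b (r = 0.98) and that of Nrp2 was Flii (r = 0.99), each out of 13849 genes. These correlations are over 8 points that share 5 libraries and are given as a description.

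Female and male hearts were compared in the 2 libraries labelled Tg female and the 2 labelled Tg male, per type, with edgeR's quasi-likelihood test over all genes. None of the 66 gene and type pairs tested for the family passed an adjusted p of 0.05; 13 of them had an unadjusted p below 0.05, against 7.47% of 86436 tests over all genes, and DESeq2 called 2. Because Ccna2 goes against the labels and was nearly absent from Tg female 1 alone, the female group may mix genotypes, and sex and genotype then cannot be told apart. Where 1 library is left out below, a sex is left with 1 library, which is assumed to vary like the libraries of the other sex. Over all genes the share called was 0.0266% in cardiomyocytes, 0.365% in fibroblasts, 0.154% in blood endothelium, 0.226% in endocardium, 0.27% in lymphatic endothelium, 0.0724% in macrophages, 0.156% in pericytes and 0.141% in smooth muscle. Differences below are log2 female minus male, with the standard error and the edgeR p adjusted over all genes of the type.

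Pgf in fibroblasts came closest to the threshold. Tg female libraries 1 and 2 held 49.3 and 47.0 CPM, with 84.8 and 115 CPM in Tg male 1 and 2 and 68.4 CPM in nTg female 1. Both male values lay above all 3 female values, and the difference between the Tg groups was -1.14 ± 0.19 (adjusted p = 0.0724). It passed the threshold in 5 of 11 alternative analyses, among them DESeq2, the fit without a filter on low counts and the replicate block. The difference ranged from -1.34 to -0.90 over the alternatives. More fibroblast genes as a whole were called in those 3 settings too. They numbered 232 of 15330 with DESeq2, 758 of 24051 without a filter and 449 of 15330 with the block, against 56 of 15330 in the main fit. The fibroblast nuclei were not evenly made up: the cluster led by Fam163b held 36.2% of them in the library labelled Tg female 2 and 5.21 to 12.6% in the other 4. Within the 6 fibroblast clusters, both Tg male values lay above both Tg female values in 5, the cluster led by Cilp being the exception. The clusters come from the same libraries and are not separate replicates. In fibroblasts as a whole the Tg groups did not overlap for 41.9% of all genes, and the share within clusters was not counted. Without the library labelled Tg female 1 the Pgf difference was -1.21, and without Tg male 1 it was -1.34.

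Vegfa in fibroblasts differed the other way. It stood at 135 and 189 CPM in the Tg female, 87.1 and 81.1 CPM in the Tg male and 108 CPM in the nTg female library. All 3 female values lay above both male values, with a difference of 0.85 ± 0.19 (adjusted p = 0.161). Both Tg female values lay above both Tg male values in all 6 fibroblast clusters. These come from the same libraries, and no share over all genes was counted within them. The Vegfa difference in fibroblasts passed in 4 of 11 alternatives, among them DESeq2, the fit without a filter and the replicate block. As given for Pgf, these settings called more fibroblast genes as a whole than the main fit. The summed cardiomyocyte markers in fibroblasts moved in the same direction, at 1212 and 1570 CPM in the Tg female against 911 and 1050 CPM in the Tg male libraries; the part of cardiomyocyte RNA in this and the following differences was not tested. In cardiomyocytes themselves the Vegfa difference was 0.44 ± 0.22 (adjusted p = 0.761). Vegfa was higher in the Tg female libraries in all 7 types tested, with no overlap of the groups in 6 of them and with a median difference of 0.58 on the log2 scale. The types come from the same libraries, and over all genes 35.1 to 41.9% did not overlap in each of these types. In macrophages, where the groups overlapped, the Vegfa difference was -0.0081 without the library labelled Tg female 2. The cardiomyocyte markers were likewise higher in both Tg female libraries in 4 of the 7 other types: besides fibroblasts, in blood endothelium (1936 and 2043 against 1645 and 1691 CPM), pericytes (1525 and 1914 against 1237 and 1346 CPM) and lymphatic endothelium (1272 and 1608 against 1109 and 1188 CPM). In pericytes, Vegfa exceeded the share of these markers only in the library labelled Tg male 2.

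The groups did not overlap in 34 of the 66 pairs (51.5%), of which 21 were higher in the Tg female and 13 in the Tg male libraries. Over all genes tested, groups of 2 against 2 did not overlap in 36.5% of genes in cardiomyocytes, 41.9% in fibroblasts, 40.9% in blood endothelium, 36.5% in endocardium, 35.1% in lymphatic endothelium, 36.2% in macrophages, 35.2% in pericytes and 33.3% in smooth muscle. Across the family the median difference was 0.10.

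For Flt1 in blood endothelium the difference was -0.50 ± 0.23 (adjusted p = 0.574) and for Kdr 0.31 ± 0.19 (adjusted p = 0.683). Without the library labelled Tg female 1 the Flt1 difference was -0.64, and over the alternatives it ranged from -0.64 to -0.28. It passed the threshold only in that fit, which leaves 1 Tg female library. Vegfc in endocardium was at 107 and 83.6 CPM in the Tg female, 47.4 and 42.2 CPM in the Tg male and 43.5 CPM in the nTg female library, a difference of 1.06 ± 0.26 (adjusted p = 0.239). The nTg female value lay with the males here. Without the library labelled Tg female 2 the Vegfc difference was 1.19, and over the alternatives it ranged from 0.76 to 1.19. This too passed the threshold only in the fit that leaves 1 Tg female library.

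Nrp2 showed opposite differences in different types. In fibroblasts it stood at 46.1 and 44.6 CPM in the Tg female and 62.5 and 70.4 CPM in the Tg male libraries, with 50.7 CPM in nTg female 1 (-0.63 ± 0.16, adjusted p = 0.21). In lymphatic endothelium it stood at 1264 and 1148 CPM in the Tg female and 771 and 792 CPM in the Tg male libraries, with 945 CPM in nTg female 1 (0.60 ± 0.20, adjusted p = 0.453). In pericytes it stood at 126 and 130 CPM against 71.5 and 97.3 CPM (0.61 ± 0.23, adjusted p = 0.607). The nTg female value in pericytes, 74.8 CPM, lay within the Tg male range, while those in fibroblasts and lymphatic endothelium lay between the Tg groups. In fibroblasts, the Tg male values lay above the Tg female values in 4 of the 6 clusters, which come from the same libraries. None of these passed alone, but the difference between types did in an edgeR fit of 2 types at a time with the library as a block, added after these values had been seen. Relative to fibroblasts, the sex difference of Nrp2 was 1.19 higher in lymphatic endothelium (p adjusted over all 28 pairs of types and all genes = 4.13e-05) and 1.22 higher in pericytes (adjusted p = 0.00482). That of Pgf was 1.90 higher in lymphatic endothelium (adjusted p = 0.00256), where Pgf stood at 75.4 and 43.3 CPM in the Tg female and 40.6 and 27.7 CPM in the Tg male libraries and at 48 CPM in nTg female 1. The summed fibroblast markers in lymphatic nuclei moved with it, at 247 and 881 CPM in the Tg female and 212 and 172 CPM in the Tg male libraries, and their part in the Pgf value was not tested. These were 3 of 275 such tests of the 10 genes; over all genes and pairs 0.209% of tests passed. Without each library in turn, the Nrp2 differences had edgeR p adjusted within the pair of types of 0.000202 to 0.0344, in fits that leave a sex with 1 library. That of Pgf was lost without the library labelled Tg female 1 (1.36, adjusted p = 0.595) or Tg male 2 (1.47, adjusted p = 0.308).

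**Figure D4:**
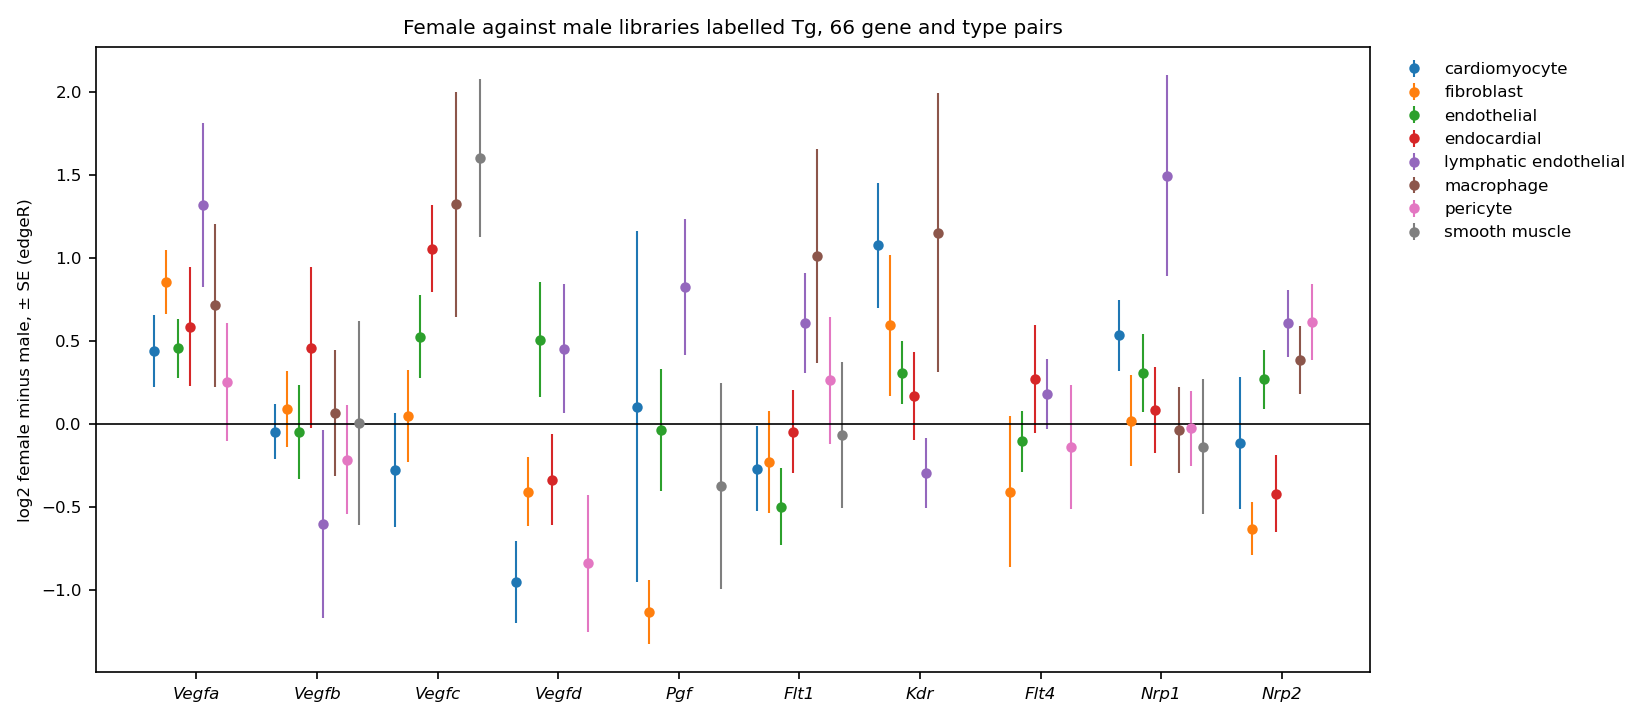
Log2 difference, female minus male, between the libraries labelled Tg, with the standard error from edgeR as bars, for 66 pairs of gene and cell type (colours). None has an adjusted p below 0.05; Vegfa lies above 0 in all 7 types tested and Nrp2 lies on both sides of 0.

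None of the genes of the 5 lists passed in any type. The lowest adjusted p in edgeR's test was 0.167, for Ptprb in fibroblasts (0.90 ± 0.21). Of 73 tests of genes known to respond to VEGF, 12 had an unadjusted p below 0.05 with higher levels in the Tg female and 3 with higher levels in the Tg male libraries. Over all genes and types the shares were 3.77% and 3.71%; the genes of a list are not independent, and nothing particular to the list is read from its count. For receptor signalling these counts were 4 and 12 of 179 tests, for the hypoxia response 5 and 6 of 104, for semaphorins and plexins 6 and 1 of 49 and for VEGF-C processing 3 and 3 of 30. Esm1, a marker of endothelial tip cells, differed by 2.37 ± 0.61 in blood endothelium (adjusted p = 0.248).

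**Figure D5:**
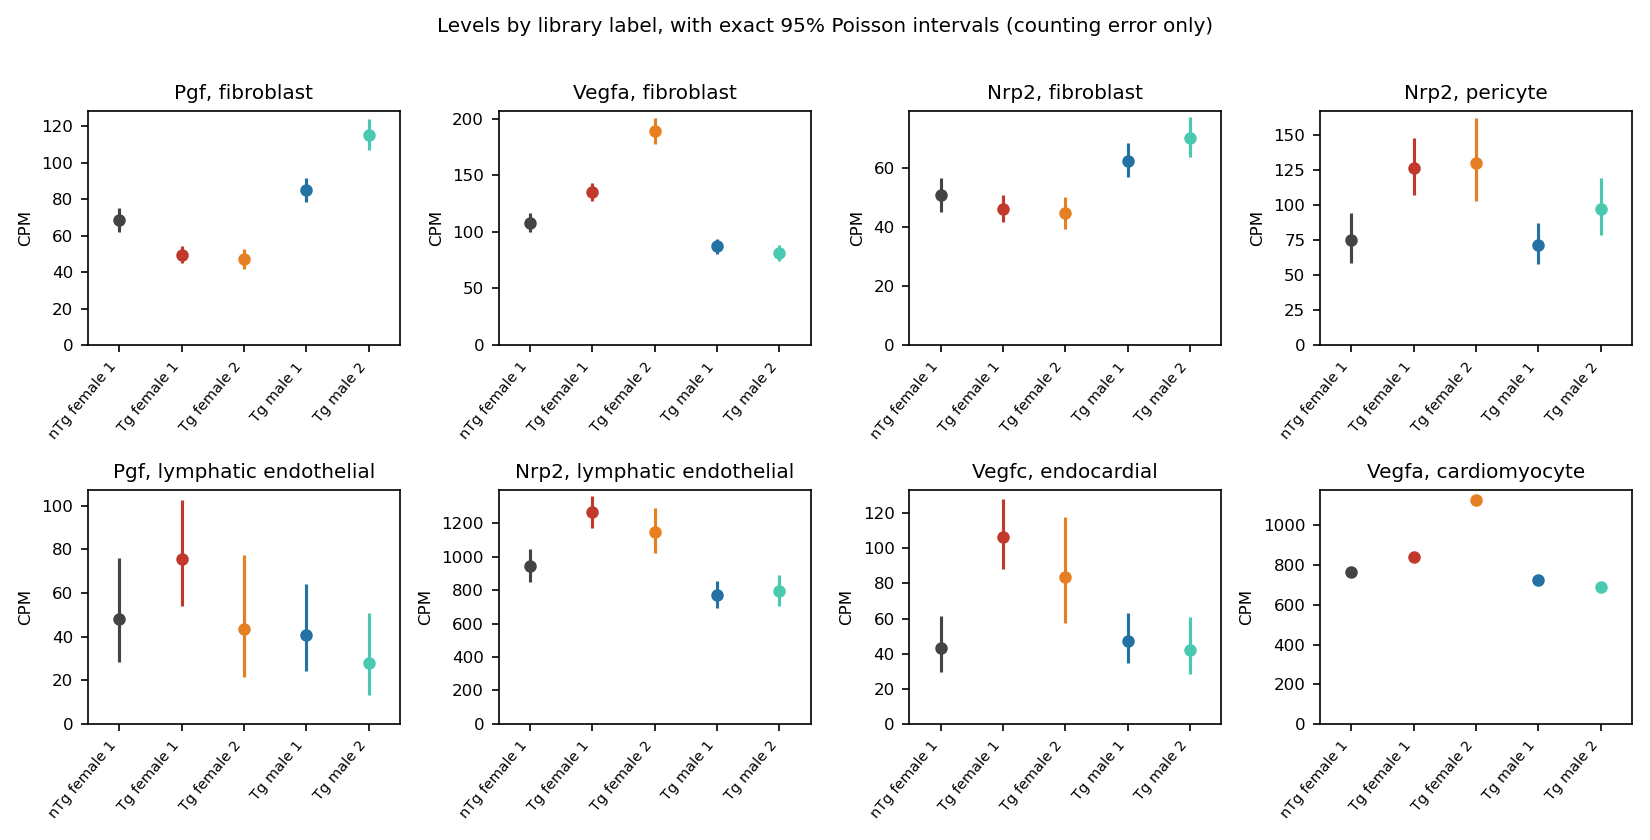
Level (CPM) of selected genes and cell types in each of the 5 libraries by label, with exact 95% Poisson intervals that cover counting error only. Pgf in fibroblasts is higher in both Tg male libraries (84.8 and 115 CPM) than in the 3 female ones, and Nrp2 is higher in the Tg male libraries in fibroblasts but lower in lymphatic endothelium.

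The library labelled nTg female 1 was set beside the 2 labelled Tg female. With 1 library in a group there is no test, and its Ccna2 level goes against its label. Of 62 gene and type pairs with at least 10 CPM in a group, 11 differed at least 2-fold from the Tg female mean and lay outside both Tg female values. Of all genes the same held for 2.14% in cardiomyocytes, 2.13% in fibroblasts, 3.27% in blood endothelium, 9.28% in endocardium, 15.8% in lymphatic endothelium, 7.56% in macrophages, 6.64% in pericytes and 20.3% in smooth muscle. No such pair lay in cardiomyocytes, fibroblasts, or blood or lymphatic endothelium. Vegfc in endocardium was at 43.5 CPM (exact Poisson interval 29.8 to 61.4, counting error only) against 107 and 83.6 CPM, and Flt4 there was at 80.2 CPM (61.1 to 103) against 44.9 and 31.4 CPM. The other 9 lay in macrophages, pericytes and smooth muscle. Of these, 8 rest on 0 to 20 UMIs in the library labelled nTg female 1. The ninth, Flt1 in macrophages (107 UMIs), was at 76.6 CPM against 76.7 and 388 CPM, so that it lay only just outside the Tg female values and its fold comes from Tg female 2.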

How the data were processed

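The authors deposited gene-by-nucleus UMI counts made with Cell Ranger 7.0.0 per the file headers, on the mouse build mm10 per the submitters' processing notes. Whether intronic reads were counted is not given in the sources used here. Counts of the 5 libraries whose matrix matched its barcode list were used; 3 matrices, identical to another library's, were not analysed here. Nuclei with at least 200 genes and under 5% mitochondrial UMIs were kept, and doublets were removed with Scrublet in scanpy 1.11.5 (expected rate 6%). The automatic threshold called none in the library labelled Tg female 2, so the median threshold of the other 4 was used there (796 nuclei, 11.4%). Clusters (2000 variable genes without the 10 described, sex-linked genes or Ccna2, centred per library, 30 components, 15 neighbours, Leiden resolution 1, and 0.4 within endothelium) were named from marker lists. UMIs were summed per type and library. Female and male Tg libraries were compared with edgeR 4.0.16 (TMM, filterByExpr, quasi-likelihood test, Benjamini-Hochberg adjustment over all genes of a type). That fit was also run on simulated counts, for cardiomyocyte and blood endothelial nuclei only. The fits of 2 types at a time were not simulated. DESeq2 1.42.0 was an alternative, with other normalizations, filters, samples and a replicate block. Intervals cover counting error only. Genes named besides the 10 were those of the lists past the threshold, the 3 highest of each list, and those most like a member over types; cluster-leading genes, Esm1 and Ptprb in fibroblasts were named after their values were seen. The genes and lists were chosen with earlier results of these data known. Gene positions are from GENCODE M21 (GRCm38) and promoter sequences from RefSeq (GRCm38.p6). Values within fibroblast clusters were added after the data were seen. Some cluster results are not reported here.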

Additional observations from a re-analysis of the deposited data

Results flagged for a closer look

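The sex difference of Nrp2 differed between fibroblasts and lymphatic endothelium by 1.19 on the log2 scale (-0.63 against 0.60) and between fibroblasts and pericytes by 1.22 (-0.63 against 0.61), and that of Pgf differed between fibroblasts and lymphatic endothelium by 1.90 (-1.14 against 0.82). Each came from the test of the difference itself in edgeR, with p adjusted over all pairs of types and genes of 4.13e-05, 0.00482 and 0.00256. That fit was added after these values had been seen, and none of the differences passed within its own type. For Nrp2 in pericytes, the library labelled nTg female 1 (74.8 CPM) lay within the Tg male range. The female group may mix genotypes, and sex and genotype then cannot be told apart. Both Tg female libraries lay on one side of both Tg male libraries in each type concerned. Over all genes this held for 41.9% in fibroblasts, 35.1% in lymphatic endothelium and 35.2% in pericytes. The Pgf value did not hold without the library labelled Tg female 1 or Tg male 2.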

How the results depend on the processing

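Of the sex comparison, 0 of the 66 member and type pairs passed in the main analysis. DESeq2 called 2 (Pgf and Vegfa in fibroblasts), the fit without a filter on low counts 3, the fit with a replicate block 2, and leaving out 1 library gave 0 to 9, the highest without the library labelled Tg female 1 (Flt1 in blood and lymphatic endothelium and in macrophages, Pgf, Vegfa and Vegfd in fibroblasts, Kdr and Vegfc in macrophages and Nrp1 in lymphatic endothelium). Genes called over all types numbered 152, and 531 with DESeq2, 1928 without a filter, 835 with the replicate block, 60 with all 5 libraries and no covariate, and 596 to 3172 without 1 library. With 2 replicate numbers per sex the labels do not say that numbers pair libraries, and same-numbered libraries deviated together weakly (correlation -0.0352 to 0.14 over types). The 22 sex differences followed through these settings include each one whose size the report gives. Flt1 in lymphatic endothelium and macrophages, Kdr and Vegfc in macrophages and Vegfd in fibroblasts, named above, were not among them. Of the 22, only that of Vegfa in macrophages changed sign. It was 0.71, and -0.0081 without the library labelled Tg female 2 and 1.14 without Tg female 1. Ptprb in fibroblasts and Esm1 in blood endothelium, not past the threshold, passed it in 3 of the alternatives each. The highest type of each gene was unchanged under all 7 alternatives, and the mean level there moved by less than the spread between libraries. At the coarser endothelial resolution (0.2), 4 genes rather than 2 had a subcluster clear of all others, Kdr there fell to 574 CPM and Vegfd to 102 CPM; without 1 library the count was 2 to 6, where 8.81 to 10.6% of all genes met the criterion. Against the library labelled nTg female 1, 7 to 16 pairs rather than 11 passed the fold rule without 1 Tg female library. Levels below about 10 CPM in smooth muscle and lymphatic endothelium rest on few UMIs.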
